A study of Mus musculus with 18 samples.

Results

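MEFs (mouse embryonic fibroblasts, a line of wild-type cells) that had opposite serum exchanges were compared at the same time after the exchange. S-Rcm 24 h denotes MEFs moved from Scm to Rcm, and R-Scm 24 h denotes MEFs moved from Rcm to Scm, each harvested 24 h later. Scm is complete medium with the fetal bovine serum that left cells sensitive to ferroptosis, and Rcm is complete medium with the fetal bovine serum that made them resistant. The comparison holds 6 of the 18 RNA-seq libraries of the series, 3 in each group, chosen by their sample labels. The other 12 libraries are 3 each of MEFs kept in Scm, kept in Rcm, or harvested 12 h after either exchange. Both 24 h groups had received fresh medium 24 h before harvest, so that the medium change itself was the same on both sides. The serum present at harvest and the serum before the exchange differ together between the groups and cannot be told apart within this comparison. In MEFs kept in Rcm or Scm (called steady culture here) both sera lie on the same side, and the comparison of the 24 h difference with the steady difference addresses whether a gene stands with the present or with the earlier serum. All MEFs are wild type and from 1 line, and nothing in the labels says that the 3 libraries of a group came from separate cultures. The p values therefore measure the spread between libraries only, and that spread was estimated within all 6 groups of the 18 libraries together.

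Serum supplies cells with lipoprotein cholesterol and fatty acids. When sterols in the endoplasmic reticulum fall, SREBP transcription factors are released from their membrane anchor, enter the nucleus and switch on the enzymes of sterol and fatty acid synthesis, often together with the factor NF-Y. PPAR factors bind fatty acids and switch on genes of fatty acid use, and type I interferon signalling switches on antiviral genes through response elements bound by STAT and IRF factors.

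Sequences before the start of 5 genes are shown because the results turn on the groups to which they belong. They are RefSeq promoter sequences of the build GRCm38.p6, 5′ to 3′ on the strand of the gene, and end at the last base before the start or before an annotated exon. Capitals mark a match on either strand to a letter pattern (N is any base). In Nsdhl, a DEG of the comparison at chrX:72918412-72918520 (plus strand), they mark the NF-Y box (CCAAT). In Hmgcs1, the first enzyme committed to the mevalonate pathway, at chr13:119690101-119690350 (plus strand), they mark the sterol regulatory element (SRE, TCACNCCAC) and the NF-Y box. In Ucp2, another DEG, at chr7:100493108-100493336 (plus strand), they mark the SRE. In the antiviral genes Oas1a, at chr5:120907526-120907775 (minus strand), and Ifit1, at chr19:34640744-34640870 (plus strand), they mark the interferon-stimulated response element (GAAA and GAAA with any 2 bases between them, and with overlapping matches in Oas1a).
Nsdhl: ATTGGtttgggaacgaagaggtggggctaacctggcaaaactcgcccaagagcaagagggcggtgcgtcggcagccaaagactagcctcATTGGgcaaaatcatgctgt
Hmgcs1: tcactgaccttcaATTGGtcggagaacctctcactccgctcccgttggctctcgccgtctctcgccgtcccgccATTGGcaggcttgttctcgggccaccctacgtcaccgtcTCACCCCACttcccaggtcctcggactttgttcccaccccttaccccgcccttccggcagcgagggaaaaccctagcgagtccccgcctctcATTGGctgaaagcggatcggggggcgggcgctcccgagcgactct
Ucp2: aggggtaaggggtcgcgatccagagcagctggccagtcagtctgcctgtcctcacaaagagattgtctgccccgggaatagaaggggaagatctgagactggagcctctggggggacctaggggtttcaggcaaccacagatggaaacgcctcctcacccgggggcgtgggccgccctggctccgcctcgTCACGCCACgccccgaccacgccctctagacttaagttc
Oas1a: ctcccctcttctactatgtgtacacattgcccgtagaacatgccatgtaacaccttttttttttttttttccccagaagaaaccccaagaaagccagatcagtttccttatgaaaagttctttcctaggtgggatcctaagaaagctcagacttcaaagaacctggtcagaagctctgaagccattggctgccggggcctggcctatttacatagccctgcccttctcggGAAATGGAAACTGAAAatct
Ifit1: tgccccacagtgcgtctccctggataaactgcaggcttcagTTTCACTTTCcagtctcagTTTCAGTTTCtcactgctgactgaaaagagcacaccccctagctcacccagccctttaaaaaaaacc

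Of 21 sterol synthesis genes, 16 had an entry in the promoter table. Within at most 250 bases before a listed start, of which exon bases of any gene in GENCODE vM21 were left out of the sequences shown, 15 of these 16 held the NF-Y box (93.8%), against 41.1% of the tested genes with an entry. The NF-Y box stood in 6 of 7 other SREBP targets (85.7%) and in 10 of 20 PPAR targets with an entry (50%). The SRE in the exact letters searched stood in 1 of the 16, Hmgcs1 (6.25%), and in 1.24% of tested genes. It stood in 0 of the 7 other SREBP targets and in 2 of the 20 PPAR targets (10%), among them Ucp2. The interferon element stood in 15 of 30 interferon-stimulated genes with an entry (50%), against 3.19% of tested genes. A PPAR element (AGGTCA and AGGTCA with any 1 base between them) stood in 0 of 20 PPAR targets with an entry and in 5 of the tested genes. A match describes the letters of the window and does not show that a factor was bound.

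The cells carried the markers of fibroblasts. In the 6 libraries, 11 of 12 fibroblast markers were at 1 CPM or more, and Lum had 0 counts. The summed level of the list was 10751 to 13497 CPM in S-Rcm 24 h and 10043 to 13619 CPM in R-Scm 24 h. The summed lists of epithelial, endothelial, leukocyte, muscle, adipocyte and neural markers were at most 19.1 CPM in any of the 6 libraries. Total counts of the 6 libraries were 15831356 to 20313715, and pairs of replicates differed by more than counting error (chi-square per degree of freedom at least 10.5). In bulk RNA, fewer cells of a type and less RNA per cell cannot be told apart. Apoh, which encodes the serum protein apolipoprotein H, had 2 to 5 counts in each of the 6 libraries and was not tested.

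Replicate 1 of each group differed from the other libraries of its group. In S-Rcm 24 h the chi-square per degree of freedom was 24.4 and 26.0 between replicate 1 and the others and 10.5 between replicates 2 and 3. In R-Scm 24 h it was 32.7 and 42.7 for replicate 1 and 30.3 between replicates 2 and 3, so that replicate 1 stood out less clearly there. A library apart from its group was not particular to 24 h. In Rcm the value was 36.2 and 34.9 between replicate 3 and the others and 10.5 between replicates 1 and 2. Replicate 1 of S-Rcm 24 h and replicate 1 of R-Scm 24 h deviated the same way in some lists. The mean log2 CPM of collagens and other matrix genes was 8.69 in S-Rcm 24 h replicate 1 and 8.70 in R-Scm 24 h replicate 1, against 7.85 to 8.22 in the other 4 libraries. That of the clock genes was 4.31 and 4.35 against 4.03 to 4.15. Matrix metalloproteinases and inhibitors were at 5.57 and 5.61 against at least 5.88. For the sterol and interferon lists, replicate 1 was the highest library of either group, and its distance from the others was larger in R-Scm 24 h. The root mean square difference of log2 CPM over the 15381 tested genes was 0.431 to the mean of Rcm and 0.56 to the mean of Scm in R-Scm 24 h replicate 1, 0.532 and 0.54 in replicate 2, and 0.515 and 0.419 in replicate 3. In S-Rcm 24 h it was 0.46 and 0.502 in replicate 1, 0.447 and 0.395 in replicate 2, and 0.469 and 0.419 in replicate 3. Replicates 1 and 2 of R-Scm 24 h and replicates 2 and 3 of S-Rcm 24 h were therefore nearer to the culture that the MEFs had left. The labels of all libraries were kept. Below, results that rest on R-Scm 24 h replicate 1 are given with and without it ("without replicate 1"), and also without replicate 1 of both groups, an alternative chosen after the values were seen.

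**Figure D1:**
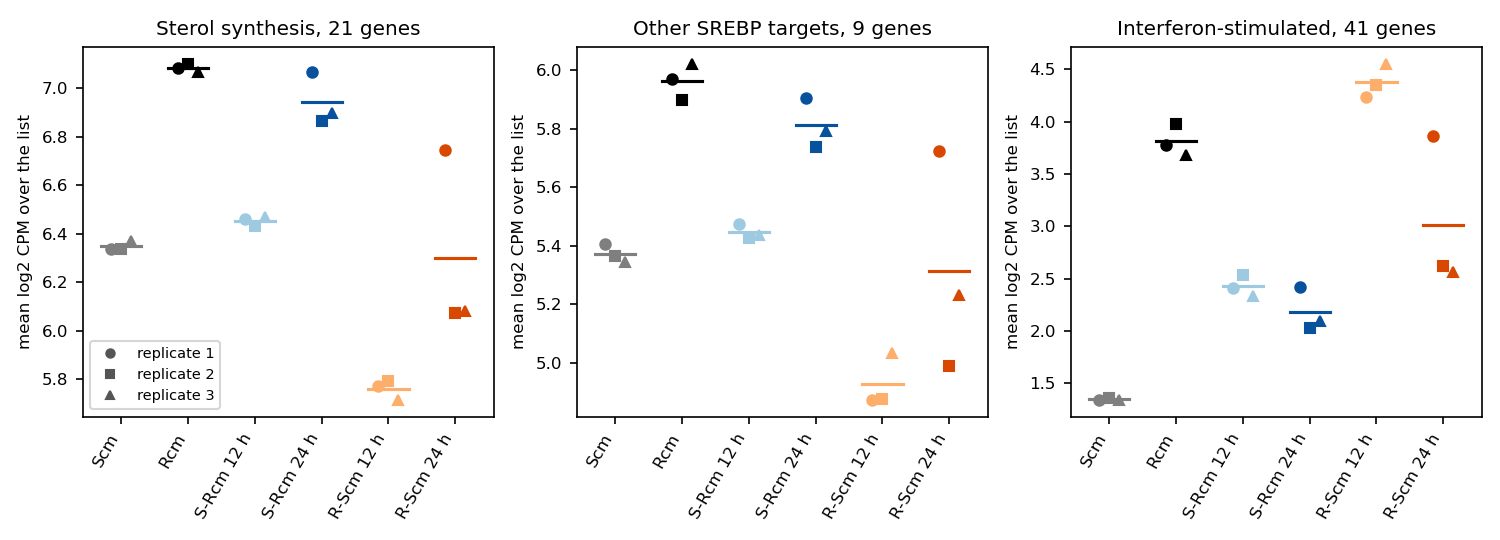
Mean log2 CPM of 3 gene lists (sterol synthesis, other SREBP targets and interferon-stimulated genes) in each of the 18 libraries (vertical axis, symbols by replicate, lines the mean of 3 libraries) by group (horizontal axis). R-Scm 24 h replicate 1 stands at 6.75 for the sterol list and 3.86 for the interferon list, above the other libraries of its group, and the 3 libraries of S-Rcm 24 h stand above those of R-Scm 24 h for sterol synthesis and below them for interferon-stimulated genes.

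A gene was counted as a DEG when edgeR's quasi-likelihood test gave an adjusted p (Benjamini-Hochberg, over the 15381 genes tested) under 0.05 and the log2 fold change exceeded 0.58 in either direction. Between S-Rcm 24 h and R-Scm 24 h, 10 genes were DEGs (0.065% of those tested), 7 higher (0.0455%) and 3 lower (0.0195%) in S-Rcm 24 h. Before adjustment, 1276 genes had a p under 0.05 (8.3%, 3.89% higher and 4.4% lower), and the 3 and 3 libraries did not overlap for 1601 genes (10.4%, 5.52% higher and 4.89% lower). The median log2 fold change of all tested genes was 0.0015. The same opposite exchanges at 12 h gave 405 DEGs (2.63%), and Rcm against Scm gave 354 (2.3%). Without R-Scm 24 h replicate 1, the 24 h exchanges gave 125 DEGs (0.796% of 15704 genes), 86 higher (0.548%) and 39 lower (0.248%), among them all 10. Without replicate 1 of both groups they gave 101 (0.644% of 15673 genes), 70 higher (0.447%) and 31 lower (0.198%), with 8 of the 10 among them. The 2 lost were Kirrel (-2.15, adjusted p = 0.0699) and Ucp2 (0.54, under the fold threshold, adjusted p = 0.0356). Without S-Rcm 24 h replicate 1 alone there were 10 DEGs, 5 higher and 5 lower, of which 4 were among the reported 10. Other single libraries also decided the number, with 4 DEGs without S-Rcm 24 h replicate 2, 2 without R-Scm 24 h replicate 2, and 0 without replicate 3 of either group. With DESeq2 on the 18 libraries, 50 genes were DEGs (0.325%), 21 higher (0.137%) and 29 lower, and they included the 10.

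Among the 7 genes that rose in S-Rcm 24 h relative to R-Scm 24 h are genes of lipid and sterol metabolism, carbon metabolism, detoxification and transport. Positions are in the build GRCm38 with GENCODE vM21 genes. Angptl4 (chr17:33773750-33781830), a secreted inhibitor of lipoprotein lipase and a PPAR target, was at 22.5, 34.6 and 40.9 CPM in S-Rcm 24 h and at 11.2, 15.3 and 12.7 CPM in R-Scm 24 h. All libraries of S-Rcm 24 h were above all of R-Scm 24 h, and the log2 fold change was 1.32 ± 0.18 (SE, adjusted p = 0.0115). Nsdhl (chrX:72918557-72958514), the dehydrogenase that takes part in removing the methyl groups at carbon 4 of sterols, was at 124, 99.5 and 104 CPM against 79.7, 52.5 and 47.0 CPM (log2 fold change 0.87 ± 0.14, adjusted p = 0.0332). Its highest library in R-Scm 24 h was replicate 1, and the groups did not overlap.

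Gsta4 (chr9:78182774-78209349), a glutathione S-transferase that conjugates aldehydes from lipid peroxidation, was at 33.8, 38.4 and 41.1 CPM in S-Rcm 24 h and at 24.7, 20.6 and 20.1 CPM in R-Scm 24 h. Its log2 fold change was 0.79 ± 0.10 (adjusted p = 0.0115). S-Rcm 24 h was near the steady cultures, which had 41.4 ± 2.6 CPM in Rcm and 35.8 ± 2.85 CPM in Scm (SD, n = 3), and R-Scm 24 h was the lowest of the 6 groups. At 12 h it had been at 118 CPM in S-Rcm and 41.3 CPM in R-Scm. Pcx (chr19:4510472-4621752), the pyruvate carboxylase that makes oxaloacetate, was at 99.8, 124 and 121 CPM against 78.5, 66.8 and 76.6 CPM (0.63 ± 0.11, adjusted p = 0.0345). Ucp2 (chr7:100493337-100502020), a carrier of the inner mitochondrial membrane and a PPAR target, was at 83.5, 69.5 and 71.7 CPM against 47.8, 44.9 and 52.0 CPM (0.63 ± 0.10, adjusted p = 0.0227). Aqp1 (chr6:55336432-55348555), a water channel, was at 35.3, 33.8 and 36.1 CPM against 23.4, 20.4 and 24.3 CPM (0.62 ± 0.10, adjusted p = 0.0227). The libraries of the 2 groups did not overlap for any of these 4 genes. Of the exon bases of Ucp2, 4.36% overlap Dnajb13 on the other strand, and without known use of strand reads there cannot be told apart.

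The remaining gene that rose was the predicted gene Gm3571 (chr10:93778660-93779719), annotated as a processed pseudogene and named because a result turns on it. It was at 123, 110 and 107 CPM in S-Rcm 24 h and at 66.3, 36.1 and 58.3 CPM in R-Scm 24 h (1.08 ± 0.17, adjusted p = 0.0274). Of the 31-base stretches of its transcript, 67.6% also occur in transcripts of Fdps, the farnesyl diphosphate synthase of the mevalonate pathway. Of the exon bases of Fdps, 26.7% overlap the protein-coding gene Gm43738 on the same strand, and 56.4% of the stretches of Gm3571 also occur in Gm43738. Reads could therefore be split between these genes in the counting, and the value of each is uncertain. Fdps itself was at 370, 322 and 336 CPM against 280, 161 and 163 CPM (0.77 ± 0.15, adjusted p = 0.0828) and was not a DEG with all libraries.

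The 3 other DEGs were lower in S-Rcm 24 h. Dynap, a gene named for its binding to dynactin, was at 308, 256 and 254 CPM in S-Rcm 24 h and at 391, 498 and 398 CPM in R-Scm 24 h, without overlap (-0.65 ± 0.10, adjusted p = 0.0227). Steady Rcm held it at 183 ± 16.2 CPM and steady Scm at 423 ± 8.53 CPM. Mbnl1 (chr3:60472830-60629750), an RNA-binding regulator of splicing, was at 131, 134 and 110 CPM against 290, 176 and 223 CPM (-0.88 ± 0.15, adjusted p = 0.0377). Both steady groups had Mbnl1 close to S-Rcm 24 h, at 146 CPM in Rcm and 153 CPM in Scm, so that R-Scm 24 h was the group that stood above the others.

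Kirrel (chr3:87078593-87174747), an adhesion protein of the immunoglobulin superfamily, had the largest fold change of the 10 DEGs. It was at 106, 95.1 and 95.5 CPM in S-Rcm 24 h and at 419, 411 and 435 CPM in R-Scm 24 h (-2.09 ± 0.34, adjusted p = 0.0377). Over the other 12 libraries it stood at 359 to 445 CPM in 11 and at 91.4 CPM in S-Rcm 12 h replicate 3, with nothing in between. Such jumps were not particular to Kirrel. A rule was written after these values were seen. It asked for a mean of at least 10 CPM over the 18 libraries and a gap with at least 2 libraries on each side. The gap had to be at least 0.7 on the log2 scale and at least 3 times the spread within the sides, pooled over both. Libraries of a group other than R-Scm 24 h had to lie on both sides. By this rule, 106 of 9829 genes stood at 2 levels (1.08%). Of the 10 DEGs, Kirrel alone met this rule.

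The fit of the 6 libraries alone gave 7 DEGs, of which Kirrel was also among the 10, and 5 of the 7 met the rule for 2 levels. Genes other than Kirrel are named here after their values were seen. Kpna1, an importin, was at 78.6 to 94.2 CPM in S-Rcm 24 h and at 30.3 to 35.5 CPM in R-Scm 24 h, and outside these groups it was at 80.3 CPM in Scm replicate 3 and at 86.1 CPM in S-Rcm 12 h replicate 2, with all other libraries at 28.2 to 34.4 CPM. Golm1, a Golgi membrane protein, was at 39.1 to 40.5 CPM against 12.6 to 15.9 CPM, and over its other libraries it was at 12.7 to 56.4 CPM. Tmem164, a membrane protein, was at 17.9 to 19.9 CPM against 54.9 to 75.4 CPM, and Rcm replicate 1 and R-Scm 12 h replicate 2 were at 17.6 and 16.4 CPM. Kirrel and C230062I16Rik were the others that met the rule. Tspan5, a tetraspanin, did not meet the rule but was at 192 to 202 CPM in S-Rcm 24 h, 68.9 to 83.4 CPM in R-Scm 24 h, and in Scm at 84.5, 197 and 96.4 CPM. Scd2, a stearoyl-CoA desaturase, was at 1756, 152 and 674 CPM in R-Scm 24 h and at 1844, 1203 and 1255 CPM in S-Rcm 24 h. What sets these levels was not tested.

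**Figure D2:**
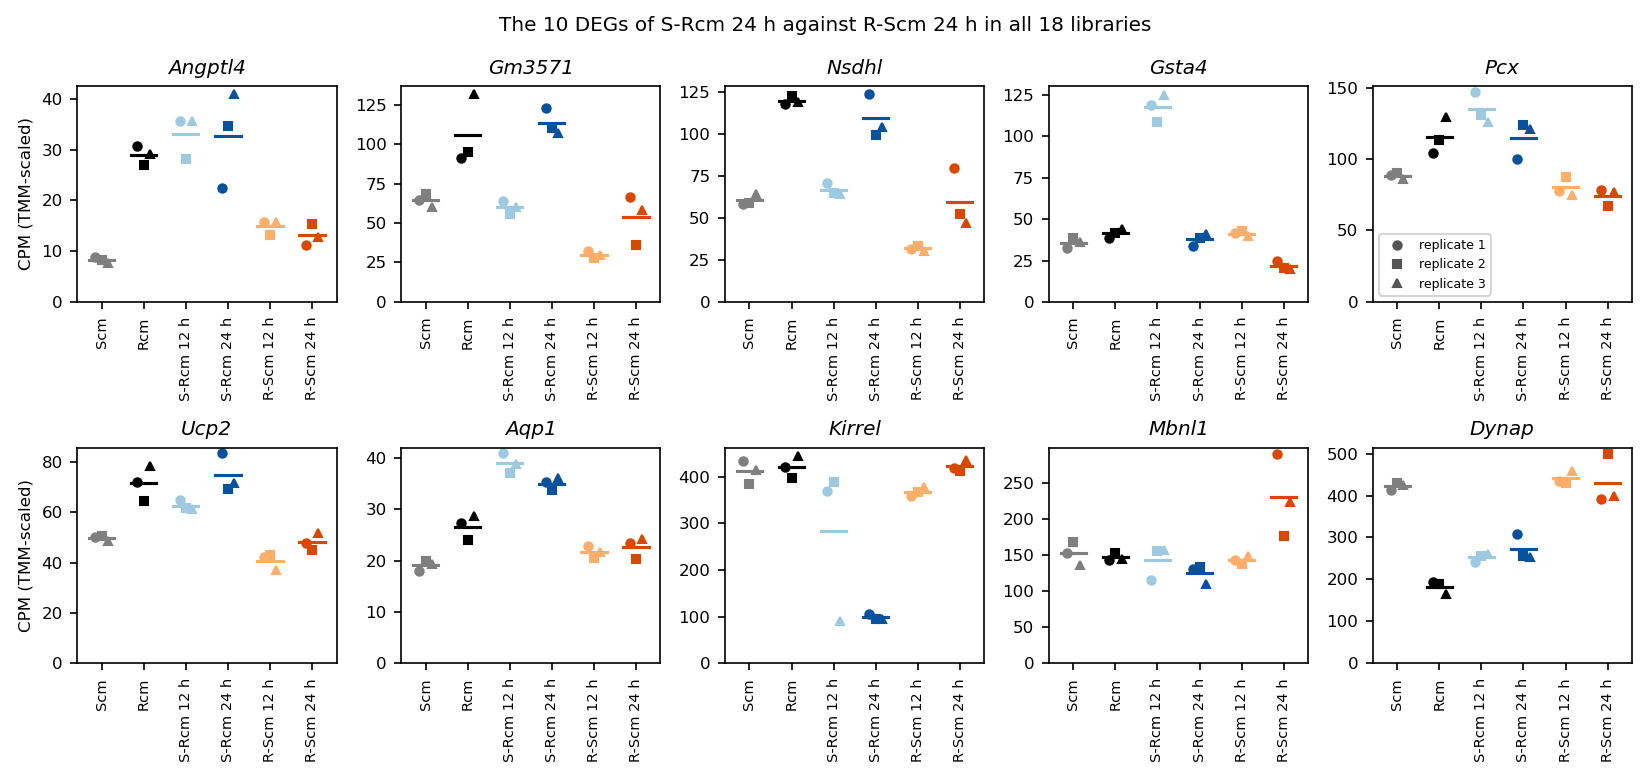
CPM (vertical axis, from 0) of the 10 DEGs in the 18 libraries, by group (horizontal axis); symbols are libraries and lines are means of 3. The points of S-Rcm 24 h do not overlap those of R-Scm 24 h in any panel, and Kirrel shows its low level also in S-Rcm 12 h replicate 3.

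**Figure D3:**
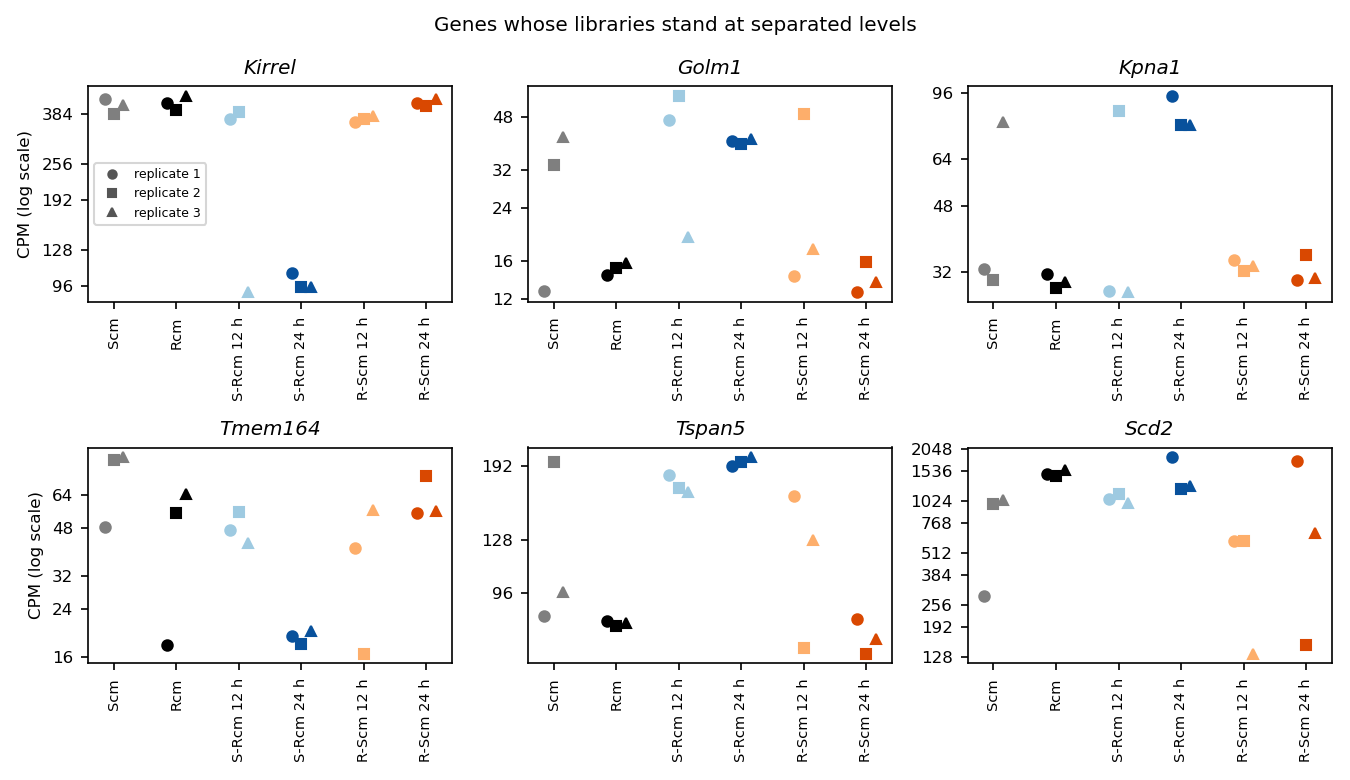
CPM on a log scale (vertical axis) of 6 genes in the 18 libraries, by group (horizontal axis), with points by replicate. Libraries of a single group stand at separated levels, as in Golm1 for S-Rcm 12 h (47.0, 56.4 and 19.1 CPM) and in Scd2 for R-Scm 24 h (1756, 152 and 674 CPM).

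The sterol synthesis genes had higher values in S-Rcm 24 h, and with all libraries Nsdhl alone among them passed the test. Of 21 members, all measured, 21 had a positive log2 fold change with a median of 0.62, against 50.3% positive and a median of 0.0015 over all genes. In 17 of them the p before adjustment was under 0.05 and the value higher (3.89% of all genes), in 12 the libraries did not overlap (5.52% of all genes), and 1 was a DEG (0.0455% of all genes), or 5 with DESeq2 on the 18 libraries (0.325% of all genes). The mean log2 CPM of the list was 7.07, 6.86 and 6.90 in S-Rcm 24 h and 6.75, 6.07 and 6.08 in R-Scm 24 h. Steady Rcm lay at 7.07 to 7.10 and steady Scm at 6.34 to 6.37, so that S-Rcm 24 h was near Rcm, and 2 of the 3 libraries of R-Scm 24 h were below every library of Scm. Without R-Scm 24 h replicate 1 the median was 0.84 and 14 of the 21 were DEGs, all higher (0.548% of all genes). This library had the highest level of the list in its group, so that leaving it out raises the difference by construction. Without replicate 1 of both groups the median was 0.80, 20 were positive and 13 were DEGs, all higher (0.447% of all genes). Without any other single library of the 6, 0 were DEGs by edgeR.

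In the mevalonate part of the pathway, Hmgcs1 was at 511, 373 and 382 CPM in S-Rcm 24 h and at 402, 228 and 194 CPM in R-Scm 24 h. Of its exon bases 12.1% overlap an antisense gene. The single overlap between the groups came from R-Scm 24 h replicate 1, and the log2 fold change was 0.62 ± 0.21 (adjusted p = 0.414) with that library, 0.998 ± 0.16 (adjusted p = 0.00514) without it, and 0.84 ± 0.15 (adjusted p = 0.0147) without replicate 1 of both groups. Over the 6 fits that each left out 1 library of the 2 groups, its value went down to 0.40 (without R-Scm 24 h replicate 3). Fdps, whose reads could be split between genes as stated above, changed by 1.08 ± 0.08 (adjusted p = 3.95e-06) without R-Scm 24 h replicate 1. Idi1, the isomerase that makes dimethylallyl diphosphate, was at 194, 179 and 142 CPM against 176, 114 and 96.4 CPM (0.42, adjusted p = 0.525). It passed the test without replicate 1 (0.71 ± 0.14, adjusted p = 0.0186) but not without replicate 1 of both groups (0.62 ± 0.14, adjusted p = 0.0602), and was at 0.23 without R-Scm 24 h replicate 3. Ggps1, which leads to geranylgeranyl diphosphate and away from sterols, was at 26.1, 21.7 and 18.9 CPM against 21.5, 27.4 and 17.0 CPM (0.02 ± 0.18).

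From squalene on, Sqle, the squalene epoxidase, was at 292, 273 and 334 CPM in S-Rcm 24 h and at 344, 232 and 238 CPM in R-Scm 24 h. The groups overlapped, and the log2 fold change was 0.14 ± 0.14 with all libraries and 0.35 ± 0.13 (adjusted p = 0.239) without replicate 1. Dhcr7, a sterol reductase at the end of the pathway, was at 39.6, 28.4 and 29.5 CPM against 25.7, 10.5 and 11.01 CPM (1.04 ± 0.30, adjusted p = 0.359). Without replicate 1 its change was 1.59 ± 0.25 (adjusted p = 0.00457), the largest of the list in that fit. Nsdhl changed by 1.14 ± 0.10 (adjusted p = 3.39e-05) without it. Fdft1, the squalene synthase, was at 178 CPM in R-Scm 24 h replicate 1 and at 80.6 and 71.7 CPM in the others, against 122, 98.4 and 124 CPM in S-Rcm 24 h.

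**Figure D4:**
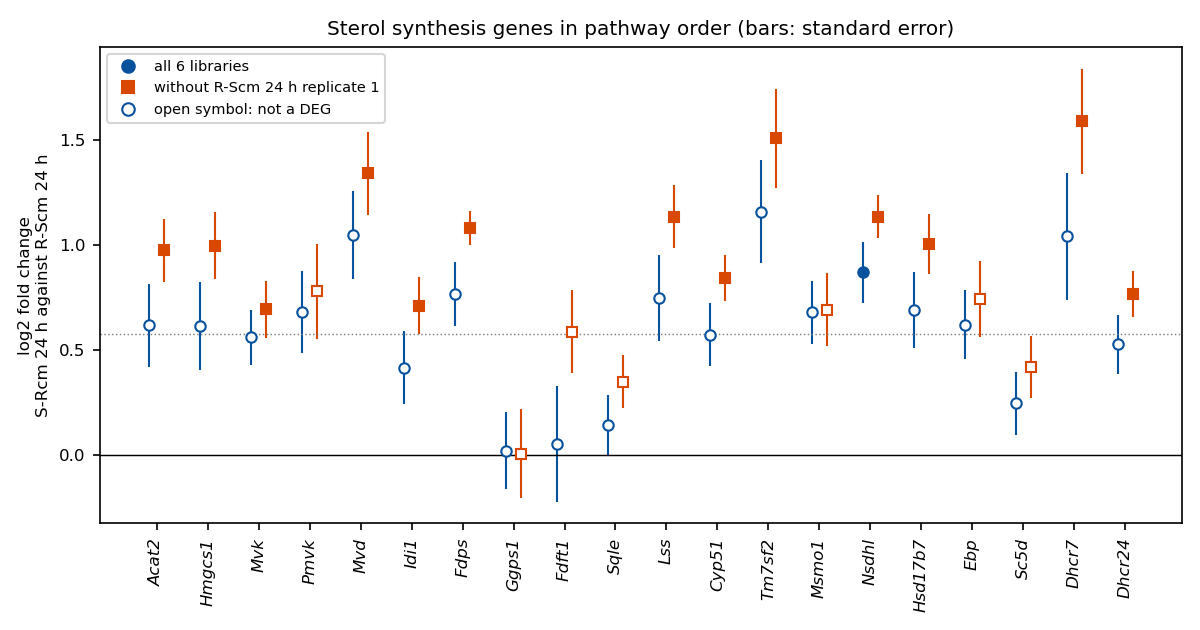
Log2 fold change of S-Rcm 24 h against R-Scm 24 h (vertical axis, bars the standard error) for 20 of the 21 sterol synthesis genes in pathway order (horizontal axis), with all 6 libraries (circles) and without R-Scm 24 h replicate 1 (squares); filled symbols are DEGs and the dotted line is the threshold of 0.58. Nsdhl is the 1 filled circle, and 13 of the squares shown are filled.

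SREBP targets outside the pathway also had positive values, and none passed the test with all libraries. Insig1, which retains SREBP in the endoplasmic reticulum and is itself a target, was at 199, 140 and 142 CPM in S-Rcm 24 h and at 138, 67.9 and 82.8 CPM in R-Scm 24 h (0.74 ± 0.19, adjusted p = 0.295), and it was a DEG without replicate 1 (1.09 ± 0.14, adjusted p = 0.00119). The transcripts of the factors differed less, with Srebf1 at 0.12 ± 0.10 and Srebf2 at 0.37 ± 0.14 (adjusted p = 0.836 and 0.485). Of the 9 measured of 10 other SREBP targets, 9 were positive (50.3% of all genes) with a median of 0.44, and 6 had a p under 0.05 before adjustment and were higher (3.89% of all genes). By edgeR or DESeq2 0 were DEGs, 5 were DEGs without replicate 1 (0.548% of all genes), all higher, and 3 without replicate 1 of both groups (0.447%). Of the 7 genes of SREBP factors and processing, 0 were DEGs by either tool (median 0.12), with 2 at a p under 0.05 before adjustment (8.3% of all genes).

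Fatty acid synthesis genes did not pass the test with all libraries. Of the 23 measured of 26 members 17 were positive (50.3% of all genes) and the median was 0.07. Before adjustment 6 had a p under 0.05 and were higher (3.89% of all genes), and 0 were DEGs by edgeR or DESeq2. The smallest adjusted p belonged to Acly, the ATP citrate lyase that supplies acetyl-CoA, at 531, 527 and 528 CPM against 453, 344 and 376 CPM (0.44 ± 0.09, adjusted p = 0.0828). Scd1, the desaturase that makes monounsaturated fatty acids, was at 432, 335 and 348 CPM in S-Rcm 24 h and at 435, 237 and 215 CPM in R-Scm 24 h. Replicate 1 of R-Scm 24 h matched the highest library of S-Rcm 24 h, and the log2 fold change was 0.33 ± 0.18 (adjusted p = 0.694) with it, 0.72 ± 0.11 (adjusted p = 0.00299) without it, and 0.597 ± 0.09 (adjusted p = 0.00472) without replicate 1 of both groups. Without R-Scm 24 h replicate 3 it was 0.13, and without S-Rcm 24 h replicate 1 it was 0.21. Fads2, a desaturase of polyunsaturated fatty acids, and Tecr, an enzyme of the elongation cycle, were the other DEGs of the list without replicate 1, and Tecr was not one without replicate 1 of both groups (0.65, adjusted p = 0.0551). Fasn, the fatty acid synthase, was at 939, 794 and 733 CPM against 721, 601 and 748 CPM (0.25 ± 0.11, adjusted p = 0.576).

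Among PPAR targets and genes of fatty acid oxidation, Angptl4 and Ucp2 were the 2 DEGs of the 20 measured of 25 genes (0.0455% of all genes were called higher). With DESeq2 there were 4 (0.325% of all genes), and the median of the list was 0.10. Cpt1a, the gate of fatty acid entry into mitochondria, named after its values were seen, was at 118, 117 and 123 CPM against 96.8, 56.1 and 60.9 CPM (0.75 ± 0.14, adjusted p = 0.0828). It was a DEG without replicate 1 (1.03 ± 0.09, adjusted p = 1.79e-05). Plin2, which coats lipid droplets and is also a PPAR target, was at 149, 157 and 160 CPM against 143, 156 and 162 CPM (0.02 ± 0.09).

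With all libraries no ferroptosis gene was a DEG. Of 24 members of the list of ferroptosis defence and execution, all measured, 13 were positive, the median was 0.09 and 0 were DEGs by edgeR with all libraries, by edgeR without R-Scm 24 h replicate 1, or by DESeq2. Nqo1 alone was a DEG without replicate 1 of both groups (0.597, adjusted p = 0.0298, with 0.447% of all genes called higher). Before adjustment and with all libraries, 9 had a p under 0.05, 8 of the 24 higher (3.89% of all genes) and 1 lower (4.4% of all genes). Gpx4, the peroxidase that reduces lipid hydroperoxides, was at 126, 114 and 124 CPM in S-Rcm 24 h and at 126, 125 and 119 CPM in R-Scm 24 h (-0.02 ± 0.08, adjusted p = 0.974). Slc7a11, the cystine importer, was at 22.8, 53.8 and 36.4 CPM against 61.9, 40.5 and 45.9 CPM (-0.39 ± 0.39, adjusted p = 0.867), and Acsl4, which activates polyunsaturated fatty acids, at 174, 148 and 139 CPM against 133, 170 and 149 CPM (0.03 ± 0.13). The smallest adjusted p of the list was that of Nqo1, a quinone reductase, at 151, 162 and 177 CPM against 139, 122 and 101.7 CPM (0.43 ± 0.11, adjusted p = 0.295). Of the 19 measured of 24 selenoproteins 0 were DEGs by edgeR (median 0.01) and 1 by DESeq2 (0.325% of all genes). Before adjustment 4 had a p under 0.05 (8.3% of all genes). Selenoh, a nucleolar selenoprotein, had the smallest adjusted p of this list (0.94 ± 0.21, adjusted p = 0.159).

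Interferon-stimulated genes had lower values in S-Rcm 24 h in nearly every member, and none passed the test. Of 41 members, all measured, 40 had a negative log2 fold change with a median of -1.02. In 31 the p before adjustment was under 0.05 and the value lower (4.4% of all genes), and in 17 the libraries did not overlap (4.89%), while 0 were DEGs by edgeR and 5 by DESeq2 (0.325% of all genes). The mean log2 CPM of the list was 2.42, 2.02 and 2.10 in S-Rcm 24 h and 3.86, 2.62 and 2.57 in R-Scm 24 h, so that the groups did not overlap but replicate 1 of R-Scm 24 h stood far above the others. Without that library the median was -0.29, 34 were negative and 0 were DEGs, and without replicate 1 of both groups it was -0.39, with 36 negative and 0 DEGs. Oas1a, an oligoadenylate synthetase that activates RNase L, was at 3.13, 1.73 and 1.77 CPM against 16.4, 3.85 and 4.33 CPM (-1.89 ± 0.45, adjusted p = 0.26, and -0.89 without replicate 1). Usp18, which takes the ubiquitin-like modifier off proteins and dampens the interferon receptor, was at 9.22, 5.42 and 5.95 CPM against 44.7, 11.4 and 9.53 CPM (-1.67 ± 0.45, adjusted p = 0.324). Oas1g, a close relative of Oas1a, had the smallest adjusted p of the list (-2.49 ± 0.53, adjusted p = 0.122), and reads of such near relatives could be split in the counting, so that the value of each is uncertain.

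The difference between S-Rcm 24 h and R-Scm 24 h was then set against the difference between Rcm and Scm in steady culture, with a contrast of the 4 groups, which share no library. It was called for 144 of 15381 genes (0.936%), 22 with a positive (0.143%) and 122 with a negative value (0.793%) of the 24 h difference minus the steady difference. Of the 122, 108 were DEGs that were higher in Rcm in steady culture (1.67% of all genes), and of the 22, 15 were DEGs that were lower in Rcm (0.631%). The steady difference enters this contrast with reversed sign, so that such an overlap is partly built in and is no separate result. Of the 41 interferon-stimulated genes, 39 were called and all 39 were negative, with a list median of -3.79. Without R-Scm 24 h replicate 1 there were 36 (list median -3.18), of 91 negative calls (0.579% of genes) among 116 (0.739%). Oas2 gave the largest of these values at -6.62 ± 1.03 (adjusted p = 0.0032), with 8.17, 7.85 and 5.64 CPM in Rcm, at most 0.428 CPM in Scm, levels between 0.559 and 1.52 CPM in S-Rcm 24 h, and 8.13, 1.14 and 1.12 CPM in R-Scm 24 h. In steady culture 39 of the 41 were DEGs, all higher in Rcm (1.67% of all genes, list median 2.69).

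For sterol synthesis the same contrast called 0 of 21 genes by edgeR. The median of the 24 h difference minus the steady difference was -0.13, with values from -1.07 to 0.33, and 3 members had a p before adjustment under 0.05, all negative (7.18% of all genes were). Nsdhl had -0.11 ± 0.20, from 0.87 at 24 h and 0.98 in steady culture. A p above the threshold does not show that the differences were equal. All 21 sterol genes thus had positive values in both comparisons, and 13 of them were DEGs in steady culture. For 40 of the 41 interferon-stimulated genes the value was positive in steady culture and negative 24 h after the exchanges.

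Ccl5, a chemokine, had the same signs as the interferon-stimulated genes, with 0.843, 1.34 and 1.20 CPM in S-Rcm 24 h and 3.59, 2.46 and 2.80 CPM in R-Scm 24 h, without overlap (-1.38 ± 0.27, adjusted p = 0.0828). In steady culture it was at 2.39 to 2.93 CPM in Rcm and at 0.481 to 0.832 CPM in Scm, and its contrast value was -3.26 ± 0.39 (adjusted p = 0.00038). Aldh1a1, an enzyme of retinoic acid synthesis, was at 5.54, 6.37 and 5.19 CPM against 8.84, 15.4 and 14.4 CPM (-1.17 ± 0.23, adjusted p = 0.0829). It was at 10.9 to 14.6 CPM in Rcm and at 2.89 to 3.33 CPM in Scm, and its contrast value was -3.20 ± 0.34 (adjusted p = 0.00012). Both genes thus had their higher values in Rcm in steady culture and in the MEFs that had left Rcm. Aldh1a1 was lower as a DEG without R-Scm 24 h replicate 1 (-1.38, adjusted p = 0.00437), which was its lowest library in R-Scm 24 h.

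Among the named genes with a positive contrast value, Tafa5, Slc6a4, Hey1, Cckar and Notumos were low in Rcm and high in Scm in steady culture. Tafa5, which encodes a secreted neurokine, was at 5.96 to 6.77 CPM in S-Rcm 24 h and at 6.06 to 7.19 CPM in R-Scm 24 h, between Scm at 12.0 to 13.2 CPM and Rcm at 1.996 to 3.05 CPM (contrast 2.28 ± 0.24, adjusted p = 0.00012). Slc6a4, the serotonin transporter, was at 5.18 to 8.10 CPM and 6.30 to 7.20 CPM, Scm at 14.6 to 16.6 CPM and Rcm at 3.37 to 4.11 CPM (2.07 ± 0.22, adjusted p = 0.00012). Hey1, a target of Notch and BMP signalling, was at 2.74 to 4.37 CPM and 2.90 to 4.65 CPM, Scm at 8.29 to 9.98 CPM and Rcm at 1.81 to 2.24 CPM (2.08 ± 0.32, adjusted p = 0.0025). For Tafa5, Slc6a4 and Hey1, the libraries of the 2 exchange groups overlapped, and both groups stood between the steady cultures without overlap. Cckar and Notumos did not stand apart from Scm in this way. Cckar was at 8.01 CPM in R-Scm 24 h replicate 1, within the range of Scm (7.01 to 8.74 CPM). Notumos was at 5.63 CPM in S-Rcm 24 h replicate 3, above all libraries of Scm (4.47 to 5.08 CPM).

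Over all genes, 4 of the 10 DEGs of the 24 h exchanges (40%) were among the 354 DEGs of steady culture (2.3% of all genes tested). These 4 were 1.13% of the 354, and all 4 had the same sign in both. They were Angptl4, Nsdhl, Dynap and Gm3571. DESeq2 on the 18 libraries called 25 genes in both comparisons, 13 with the same and 12 with the opposite sign. Without replicate 1, edgeR called 55 in both, 2 of them of opposite sign, and without replicate 1 of both groups 45, 5 of them of opposite sign. In these alternatives the steady comparison was called anew, so that its DEGs are not the reported 354. Of the reported 354, 28 were DEGs at 24 h without replicate 1 with the same sign and 1 with the opposite sign (0.796% of all genes were called at 24 h in that fit). With all libraries, 186 of the 354 had the same sign at 24 h (52.5%, against 48.4% of all tested genes), 113 of the 257 that were higher in Rcm (44%) and 73 of the 97 that were lower (75.3%, with 0.631% of all genes called lower). Outside the interferon list, 112 of 218 higher genes had the same sign (51.4%). Across genes, the log2 fold changes of the 24 h exchanges correlated with those of steady culture with Pearson's r = -0.13 and Spearman's rho = -0.05, and with those of the 12 h exchanges with r = 0.32 and rho = 0.38. The comparisons share no library. These values are across genes, which are not independent replicates.

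**Figure D5:**
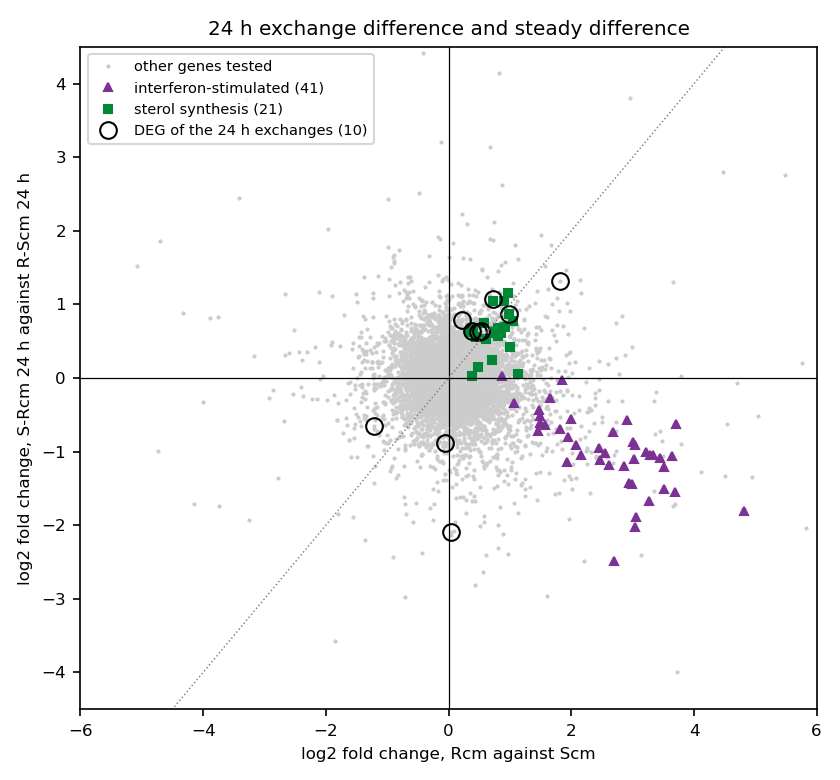
Log2 fold change of S-Rcm 24 h against R-Scm 24 h (vertical axis) and of Rcm against Scm (horizontal axis) for each tested gene (6 lie outside the axes); the dotted line marks equal values. The 21 sterol synthesis genes lie in the upper right, 40 of the 41 interferon-stimulated genes lie in the lower right, and circles mark the 10 DEGs of the 24 h exchanges.

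The difference between the opposite exchanges was also compared between 24 h and 12 h. The contrast called 0 of 15381 genes (0%) by edgeR, with 917 at a p under 0.05 before adjustment (5.96%), 10 by DESeq2 on the 18 libraries, 29 by edgeR without R-Scm 24 h replicate 1, and 21 without replicate 1 of both groups. For sterol synthesis, 12 of 21 were DEGs at 12 h, all higher in S-Rcm (1.03% of all genes), with a median of 0.73, and for the interferon-stimulated genes 35 of 41 were DEGs at 12 h, all lower in S-Rcm (1.6% of all genes), with a median of -2.27. The 24 h difference minus the 12 h difference was positive for all 41 interferon-stimulated genes, with a median of 0.97, and 19 had a p under 0.05 before adjustment (3.13% of all genes, higher). The lower values in S-Rcm were thus nearer to 0 at 24 h than at 12 h in 40 of them, without a called difference. For sterol synthesis 7 of 21 were positive with a median of -0.18, and 1 had a p under 0.05 before adjustment, with a negative value. Gsta4 differed by 1.51 at 12 h and by 0.79 at 24 h on the log2 scale, and Angptl4 by 1.15 and 1.32.

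The other lists held no DEG by edgeR with all libraries, and the member with the smallest adjusted p is given for each. DESeq2 called 1 member each among the chemokines, the BMP genes, the retinoid genes and the Wnt genes (0.325% of all genes), and 0 in the other lists. Without R-Scm 24 h replicate 1, edgeR called 3 collagen and matrix, 2 FOXO and IGF and 1 Wnt gene higher (0.548% of all genes). It called 1 BMP, 1 retinoid, 1 contractile and 1 glycolysis gene lower (0.248%). Without replicate 1 of both groups, 2 collagen and matrix, 1 FOXO and IGF and 1 Wnt gene were higher (0.447%), and 2 BMP, 1 retinoid and 1 ATF4 gene lower (0.198%). In BMP readouts and Id genes, 13 of 15 measured members were negative (median -0.22), and Id4, an inhibitor of DNA binding, was at 13.3, 13.1 and 12.0 CPM in S-Rcm 24 h and at 16.8, 24.1 and 22.5 CPM in R-Scm 24 h (-0.72 ± 0.14, adjusted p = 0.0828). It was a DEG without replicate 1. Collagens and other matrix genes had a median of 0.10 over 20 genes. Col11a1, a fibrillar collagen chain, was at 63.5, 41.3 and 45.6 CPM against 55.6, 14.7 and 14.7 CPM, and Col3a1, another one, at 675, 542 and 572 CPM against 714, 200 and 223 CPM. Replicate 1 of R-Scm 24 h reached the levels of S-Rcm 24 h in both, and without it both were DEGs, with 1.77 (adjusted p = 0.00026) and 1.497 (adjusted p = 3.95e-06). Since replicate 1 of S-Rcm 24 h was also the highest library of its group in both, that fit left the groups unbalanced. Without replicate 1 of both groups the values were 1.56 (adjusted p = 0.000209) and 1.399 (adjusted p = 3.39e-06). Wnt9a, a Wnt ligand, was at 5.96, 7.04 and 6.96 CPM against 4.36, 2.97 and 3.11 CPM (0.94 ± 0.19, adjusted p = 0.0919), in a list of 16 measured Wnt genes with a median of -0.07. Wnt9a was a DEG without R-Scm 24 h replicate 1 (1.13 ± 0.20, adjusted p = 0.00981).

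In cholesterol export, storage and trafficking the median over 14 genes was -0.14, and Lpcat3, an acyltransferase of phospholipids, had the smallest adjusted p (0.37 ± 0.11, adjusted p = 0.367). The 17 clock genes had a median of -0.06 with Nr1d1, a repressor of the clock, at -0.31 ± 0.13 (adjusted p = 0.548), and the 11 glucocorticoid-responsive genes had -0.05 with Klf9, a glucocorticoid-induced factor, at -0.36 ± 0.18 (adjusted p = 0.639). The 16 ATF4 targets had a median of -0.15, 12 of them negative, with Vldlr, a lipoprotein receptor, at -0.52 ± 0.14 (adjusted p = 0.312). The 12 p53 targets had -0.21 with Ccng1, a cyclin, at -0.37 ± 0.14 (adjusted p = 0.482), and the 29 genes of DNA replication and mitosis had 0.06 with Aurkb, a mitotic kinase, at 0.27 ± 0.11 (adjusted p = 0.54). The 22 contractile and SRF/YAP genes had a median of -0.03 with Mylk, the myosin light chain kinase, at 0.73 ± 0.24 (adjusted p = 0.395). The 17 genes of glycolysis and hypoxia had -0.08 with Hk1, a hexokinase, at 0.36 ± 0.18 (adjusted p = 0.642), and the 19 FOXO and IGF genes had 0.01 with Igfbp7, an IGF-binding protein, at 0.39 ± 0.13 (adjusted p = 0.409). The 11 matrix metalloproteinases and inhibitors had -0.13 with Timp2, an inhibitor, at -0.16 ± 0.09 (adjusted p = 0.7). The 10 retinoid genes had 0.15, and the 13 chemokines and acute-phase genes had -0.22.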

How the data were processed

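Paired-end RNA-seq reads of MEFs were mapped by the authors to GRCm38 with HISAT2, and the values that the authors deposited are raw counts of reads per gene for 55487 genes. The counting tool and its use of strand are not given in the sources used here. Columns were matched to samples by their descriptions. Genes with too few counts for edgeR's filterByExpr were removed (40106, leaving 15381), and a robust quasi-likelihood model with TMM factors was fitted to all 18 libraries in 6 groups (edgeR 4.0.16, limma 3.58.1, R 4.3.3), with 12 residual degrees of freedom. The DEG thresholds are those of the study, and its tool, DESeq2 1.42.0, was an alternative, beside other factors, filters, thresholds, a replicate block and leaving out each library. CPM are TMM-scaled, log2 CPM used a prior count of 2, and values after ± are SEs for log2 fold changes and SDs for CPM (n = 3). Scripts were tested on simulated data. Single values of 3 list members are not reported here, and the counts and medians of the lists include them. Members, lists, motifs and tests were chosen with earlier results of these data known. Named genes were the up to 12 largest rises and falls among DEGs of at least 1 CPM without overlap, a set of sterol, lipid and ferroptosis genes, for each list up to 6 DEGs or else the member with the smallest adjusted p, and the up to 6 largest called values in each direction of the contrasts with steady culture and 12 h. Ggps1, Fdft1, Cpt1a, Plin2, Fads2, Tecr, Col3a1, Scd2, Gm3571, Ifit1 and the genes at 2 levels other than Kirrel lie outside this rule and were chosen after their values were seen. Reads without molecular identifiers are not independent molecules, so that counts carry more than counting error.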

Additional observations from a re-analysis of the deposited data

Results flagged for a closer look

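The test of the 24 h exchange difference against the steady difference called 144 genes, and the named genes among them differ between the comparisons as follows, on the log2 scale. Negative values were found for Oas2 (-6.62), Oasl2 (-5.24), Oas1g (-5.18), Ifi44 (-5.02), Usp18 (-4.94) and Oas1a (-4.94), all interferon-stimulated, and for Ccl5 (-3.26) and Aldh1a1 (-3.20). In R-Scm 24 h, replicate 1 was the highest library for the 6 interferon-stimulated genes and for Ccl5, and the lowest for Aldh1a1. Kirrel was called at -2.12, and its libraries stood at 2 separated levels as described above. Positive values were found for Tafa5 (2.28), Notumos (2.20), Cckar (2.13), Hey1 (2.08), Slc6a4 (2.07) and Tspan5 (2.01). Notumos is an antisense gene that shares 26.6% of its exon bases with Notum, and without known use of strand their reads cannot be told apart. Tspan5 stood at 84.5, 197 and 96.4 CPM in the 3 libraries of Scm. The part of library differences in these values was not tested.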

How the results depend on the processing

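The 10 DEGs of S-Rcm 24 h against R-Scm 24 h became 0 at an adjusted p under 0.01, 50 with DESeq2 on the 18 libraries and 46 with DESeq2 on these 6 alone, both including the 10, and 101 without replicate 1 of both groups (8 of the 10). Leaving out single libraries gave 0 to 125 (10, 4 and 0 for replicates 1, 2 and 3 of S-Rcm 24 h, and 125, 2 and 0 for those of R-Scm 24 h), with 4, 3, 0, 10, 2 and 0 of the reported 10 among them. The fit of the 6 libraries alone gave 7, of which 1 was among the 10. For the difference from steady culture, 144 genes became 71 at an adjusted p under 0.01, 271 or 252 with DESeq2, and 80 to 233 without single libraries, and they left the range within 1.5 times without Scm replicates 1 (93) and 2 (91), Rcm replicates 1 (90), 2 (93) and 3 (221), S-Rcm 24 h replicates 2 (83) and 3 (80), and R-Scm 24 h replicate 3 (233). For the difference from 12 h, 0 became 10 or 9 with DESeq2, 1 in edgeR on the 4 groups, 21 without replicate 1 of both 24 h groups, and 0 to 29 without single libraries (29 without R-Scm 24 h replicate 1, and 1 if S-Rcm 12 h replicate 3 was left out). The 4 genes called both at 24 h and in steady culture became 0 at an adjusted p under 0.01, 25 or 17 with DESeq2 (12 and 5 of them of opposite sign), 0 in edgeR on the groups of each contrast, 45 without replicate 1 of both 24 h groups (5 of opposite sign), and 0 to 55 without single libraries. Leaving out R-Scm 24 h replicate 1 gave the 55, leaving out replicate 2 of either 24 h group gave 1, replicate 3 of either gave 0, and single Scm libraries gave 1 or 2. Each alternative called the steady comparison anew as well. RLE or upper-quartile factors, other filters on low counts and a fit without robust estimation kept all 4 counts within 1.5 times of the reported ones. So did leaving out the genes at 2 levels, which, like the fit without replicate 1 of both groups, was chosen after seeing the data. No named gene was called with the opposite sign under any alternative, while 77 gene values lost the call and 39 gained it out of 1339. Deviations from the group means correlated at 0.15, -0.02 and 0.12 between same-numbered libraries of the 2 groups, and at -0.22 to 0.14 between differently numbered ones. Whether the numbers pair the samples cannot be told from these values. With the replicate block, the DEGs were 7 and all 7 were among the 10. The difference from steady was then called for 136 genes, the difference from 12 h for 0, and the genes in both were 4. The cause of these changes was not tested. With 3 libraries a group, an exact permutation test of a single value cannot go below p = 0.1, and no batch or date is given in the labels, so that no within-batch value could be had.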
